A study of Mus musculus with 2 samples.

Results

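The genes described here encode the mitochondrial respiratory chain and the ATP synthase, read in regulatory T (Treg) cells of mice with and without miR-125a. They were chosen by symbol from the platform annotation: probe sets naming a single gene whose symbol begins with Nduf, Uqcr, Atp5 or Cox and a digit, or is Sdha to Sdhd, Cycs or Cyc1. The rule found 100 genes of 18193 named on the array, by 202 probe sets. Of these genes 84 encode subunits or cytochrome c, and 16 encode assembly factors, which build the complexes and are not part of them. By complex there were 36 genes of complex I, 4 of complex II, 9 of complex III, 17 of complex IV and 17 of complex V, with Cycs apart.

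The study had 2 pooled RNA samples. The WT pool held CD4+CD25hi splenic Treg cells of wild-type littermates and the KO pool the same cells of miR-125a knockout mice, all 6 to 8 weeks old. Equal amounts of RNA from different mice were combined within a genotype, and the number of mice and the allele are not given in the sources used here. Each pool was hybridised to 1 Affymetrix Mouse Genome 430 2.0 array, so no test between genotypes was possible and no p-value is given. Every difference below compares 2 pools.

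The transcript missing in the KO mice, a microRNA, gives a hairpin with a mature strand on each arm. Both are shown, because they define the group compared, from RefSeq on build GRCm38.p6, plus strand, with the seed (bases 2 to 8, which pair with target transcripts) in capitals. The 5p strand lies at chr17:17830817-17830840 and the 3p strand at chr17:17830855-17830876.
mmu-miR-125a-5p: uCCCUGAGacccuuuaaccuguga
mmu-miR-125a-3p: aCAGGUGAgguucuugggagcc

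Complex I (NADH dehydrogenase) and complex II (succinate dehydrogenase) pass electrons from nutrients to ubiquinone. Complex III hands them on to cytochrome c, and complex IV (cytochrome c oxidase) to oxygen. Complexes I, III and IV pump protons across the inner membrane, and complex V, the ATP synthase, uses the returning protons to make ATP. Treg cells are known for leaning on this oxidative route more than conventional effector T cells do. Most subunits are encoded in the nucleus and assembled with a few encoded in mitochondrial DNA.

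Values are MAS5 signals on a linear scale, on which the trimmed mean of each array was 500.0. A gene's log2 ratio is log2 of the KO signal plus 16.3 over the WT signal plus 16.3, from its probe set of highest mean signal. Folds are on this scale and understate differences of dim genes. A gene counted as measured from a mean signal of 62.3 upward, as 10590 genes did. The probe-set SD given for a gene is the spread in log2 ratio of a single probe set, among genes of like signal. This SD was estimated from differences between the brightest probe sets of a gene, and those differences spread more widely than the SD. The probe-set SD was 0.37 for the dimmest and 0.18 for the brightest of 10 groups of genes with several probe sets. It covers no variation between mice. The labelled cell type was read from its markers. Il2ra (CD25) had signals of 15390 in WT and 18551 in KO, and Ctla4 16623 and 16803. Foxp3, the Treg-defining factor, had 1631 and 694 (log2 ratio -1.21, SD 0.25). Of 8 measured T cell and Treg markers 4 had a ratio above 0 (50%, against 51% of all measured genes). Cd3e stood at -0.41, Cd4 at -0.15, Tnfrsf18 at -0.08, Cd3g at 0.01 and Ikzf2 at 0.45. Whether the pools differed in Treg content was not tested.

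Respiratory chain subunits were mostly a little higher in the KO pool. Of the 80 measured subunit genes (cytochrome c included), 63 had a log2 ratio above 0, which is 78.8%, against 51% of all measured genes. Their median log2 ratio was 0.11, with an interquartile range from 0.03 to 0.23, whereas all genes had a median of 0.0071 and an interquartile range from -0.20 to 0.22. The spread was narrower and the centre higher, but the subunits were also bright, and the probe-set SD is smaller at high signal. Genes past the 75th percentile of signal had an interquartile range from -0.17 to 0.20. Their median WT signal was 1443, against 7343 for the 80 subunits, so the spreads were not compared at equal signal. Sizes were counted at a log2 ratio of 0.322, which is called the threshold below and written 0.32. Of the 80, 9 were at or above 0.32 (11.3%), against 15.9% of all genes, and 1 was at or below -0.32, against 16% of all genes. The share past the upper threshold was thus no greater than among all genes, while few subunits were past the lower one. With equal array medians 15 subunits were past the upper threshold (18.8%), against 18.6% of all genes. At 2-fold, 1 of the 80 was higher and 0 were lower, against 1.08% and 1.2% of all genes.

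Against the probe-set SD, 31 of the 80 ratios lay above 0 by more than their SD and 2 lay below 0 by more than it, with 47 inside. Among all measured genes 20.9% lay above and 19.5% below. The subunits were bright, 75 of 80 being past the 75th percentile of signal, where 52.3% of all genes had a ratio above 0 and 59 of these 75 subunits did. Past that percentile 8 of 75 subunits were past the upper threshold, against 12.9% of all genes, and 0 past the lower, against 12.5%. The 75 subunits were brighter still, with a median WT signal of 7462 against 1443, so signal was not matched in these comparisons.

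**Figure D1:**
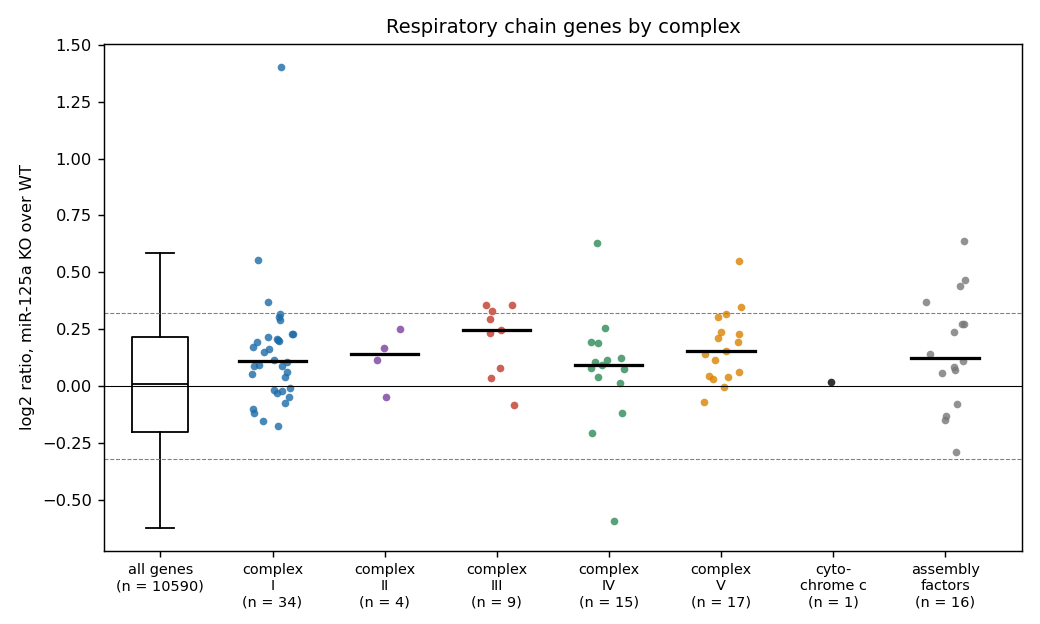
Log2 ratio (KO over WT) of each measured gene by complex, with black bars at the medians, dashed lines at 0.32 and -0.32 and, on the left, a box of the quartiles of all 10590 genes with whiskers from the 5th to the 95th percentile. The points of every complex sit mostly between 0 and 0.35, with Ndufb1 at 1.40 far above the rest.

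The medians of the complexes ran from 0.09 to 0.25. The counts that follow stand against 51% of all measured genes above 0 and 15.9% past the upper threshold. Complex III had the highest median, 0.25, with 8 of 9 genes above 0 (88.9%) and 3 past the upper threshold (33.3%). Complex V followed at 0.15, with 15 of 17 above 0 (88.2%) and 2 past the upper threshold (11.8%). Complex II stood at 0.14 with 3 of 4 above 0 (75%) and 0 past the upper threshold. Complex I stood at 0.11 with 24 of 34 above 0 (70.6%) and 3 past it (8.8%). Complex IV stood at 0.09 with 12 of 15 above 0 (80%) and 1 past it (6.7%). These gaps are smaller than the probe-set SD of a single bright gene, which does not measure the error of a median. The order of complexes was not tested. No complex had a median below 0 in any of the settings tried.

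**Figure D2:**
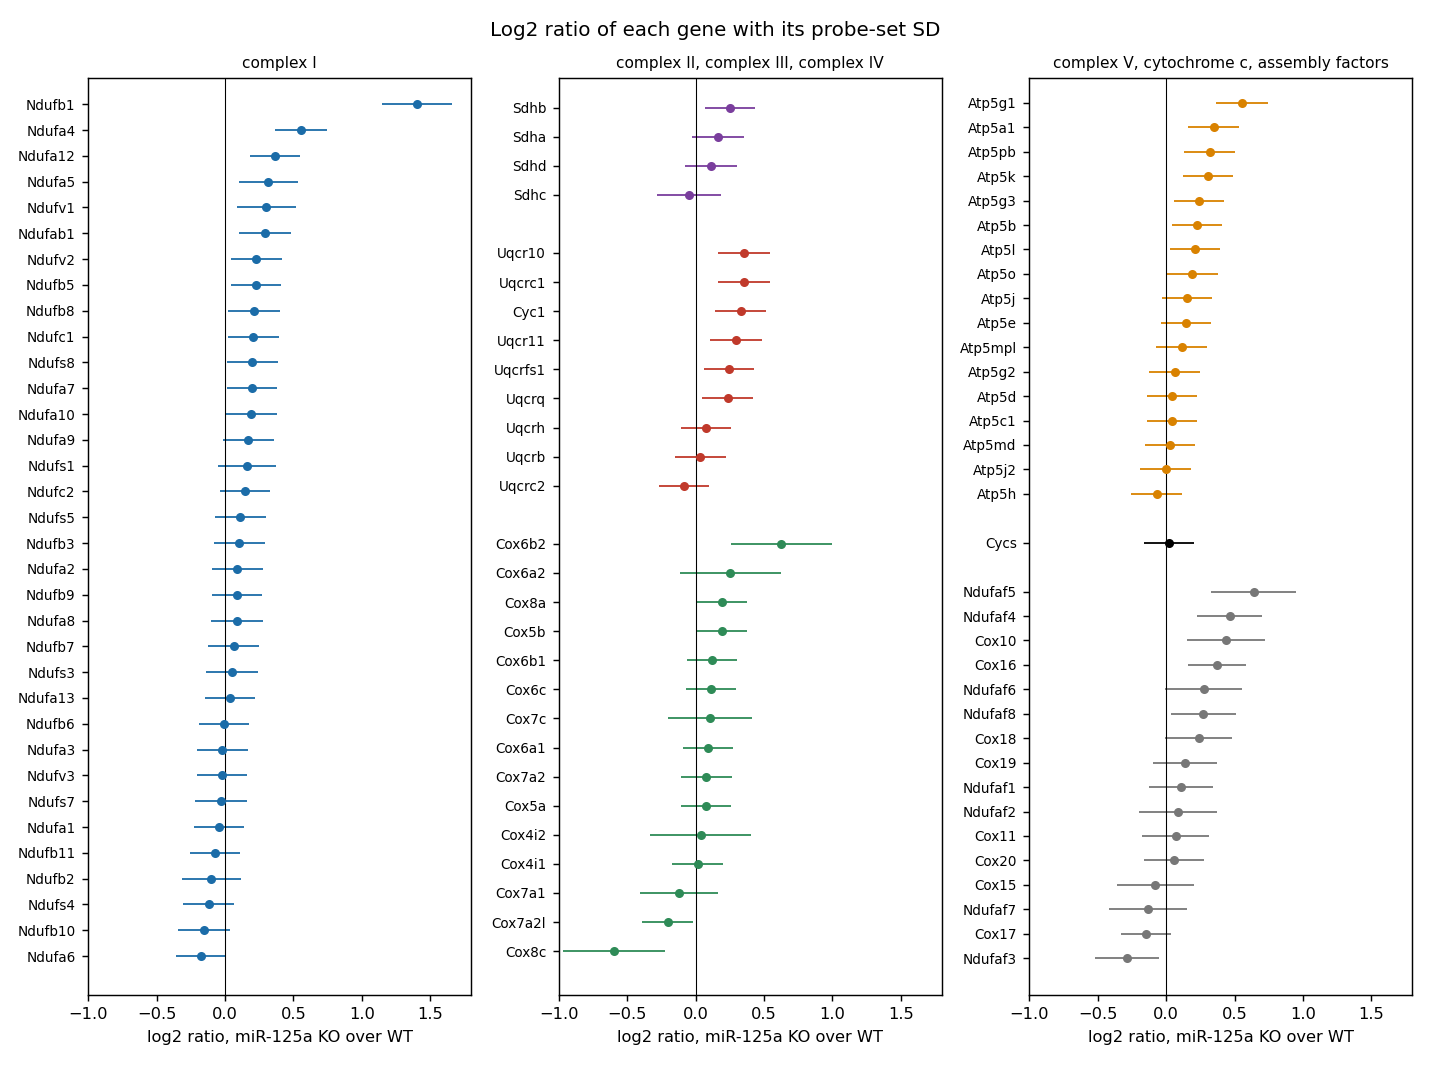
Log2 ratio (KO over WT) of each measured gene, ordered within its complex, with bars of 1 probe-set SD to either side. The bars of 6 of 9 genes of complex III and 8 of 17 of complex V clear 0 on the right, and the bars of Cox7a2l, Cox8c and Ndufaf3 clear it on the left.

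The core subunits of complex I read here are those encoded in the nucleus, which face the matrix and mostly carry its redox cofactors. Ndufv1, which binds NADH and the flavin, had a signal of 2971 in WT and 3664 in KO (log2 ratio 0.30, probe-set SD 0.22). Ndufv2, with an iron-sulphur cluster beside it, had 7473 and 8765 (0.23, SD 0.18). Ndufs1, with further clusters of the electron wire, had 1598 and 1789 (0.16, SD 0.21). By the probe sets used, these 3 genes of the NADH end were higher in the KO pool, Ndufv1 and Ndufv2 by more than their probe-set SD. The other probe sets of Ndufv2 gave -0.04 and -1.06, and its mean over probe sets was -0.29, so its direction turned with that choice. Ndufs8 had 5387 and 6192 (0.20), Ndufs3 5477 and 5673 (0.05) and Ndufs7 3422 and 3350 (-0.03), all 3 near the quinone site, so that the latter 2 hardly differed between the pools.

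Accessory subunits of complex I surround this core, and 19 of 28 measured ones had a ratio above 0 (67.9%, against 51% of all genes). Ndufb1, a small subunit of the membrane arm, stood at 380 in WT and 1032 in KO, 2.64-fold higher (log2 ratio 1.40, SD 0.26). It was the only respiratory chain gene of the 96 measured that passed 2-fold, and a single probe set measured it. Ndufa4, named for complex I but found by later work in complex IV, stood at 3482 and 5122, 1.47-fold higher (0.55, SD 0.19). Ndufa12, near the NADH end, stood at 6488 and 8379, 1.29-fold higher (0.37, SD 0.18). Of its other probe sets 2 gave ratios of 0.41 and 0.47 and a dim one -0.42.

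At the low end of complex I, Ndufa6 had 7255 in WT and 6411 in KO (-0.18, SD 0.18) and Ndufb10 4442 and 3990 (-0.15, SD 0.19). Both lay within the probe-set SD of 0. Ndufa1, required for assembly of the membrane arm and included for its high signal, had 17315 and 16766 (-0.05). Split by position, the 14 measured genes of the matrix arm had a median of 0.17 with 10 above 0 (71.4%). The 18 of the membrane arm had a median of 0.09 with 12 above 0 (66.7%), against 51% of all genes. This split was made after the values were seen. Ndufab1, the acyl carrier protein that sits in both arms, had 5101 and 6245 (0.29).

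Complex II also belongs to the citrate cycle and has no subunit encoded in mitochondria. Sdhb, its iron-sulphur subunit, had 7156 in WT and 8514 in KO (0.25, SD 0.18), and Sdha, the flavoprotein that oxidises succinate, 3704 and 4158 (0.17, SD 0.19). The membrane anchors Sdhd and Sdhc had 3468 and 3751 (0.11) and 1335 and 1292 (-0.05). Only Sdhb exceeded its probe-set SD. Probe sets of Sdhc disagreed, the dimmer one giving 0.69 at 415 and 682, and those of Sdha gave ratios from -0.24 to 0.17 past the minimum.

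In complex III, 6 of 9 genes exceeded their probe-set SD, all upward, against 20.9% of all measured genes above theirs. Cyc1, cytochrome c1, which passes electrons to cytochrome c, had 4440 in WT and 5579 in KO, 1.26-fold higher (0.33, SD 0.19). Uqcrfs1, the Rieske iron-sulphur protein, had 10663 and 12647 (0.25, SD 0.18). Both redox subunits of this complex encoded in the nucleus were thus higher in the KO pool. Uqcrc1, a core protein without cofactor, had 4140 and 5296, and Uqcr10, a small membrane subunit, 4140 and 5298, each 1.28-fold higher (0.35, SD 0.19).

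The 3 probe sets of Uqcr10 gave 0.35, 0.34 and 0.40, the closest agreement among the genes past the threshold with several measured probe sets. Uqcr11 had 4446 and 5456 (0.29). Uqcrc2, the partner of Uqcrc1, was the 1 gene of complex III below 0, at 8030 and 7583 (-0.08), with its other probe set at 0.13. Uqcrb, which borders the quinone site and was included for its signal, had 24467 and 25072 (0.04). Cycs, cytochrome c itself, had 18978 and 19222 (0.02), but its next probe sets gave 0.36 at 8635 and 11125 and 0.33 at 4180 and 5267. With the mean over probe sets Cycs stood at 0.24.

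The 9 measured ubiquitous subunits of complex IV were all above 0 and all under the threshold, from 0.01 to 0.19, with 3 of them on the other side of 0 under another setting. These were Cox4i1 with quantile or loess scaling, Cox6c with the mean over probe sets (-0.16) and Cox7c when probe sets with the suffixes _s_at and _x_at, open to cross-matching, were dropped (-0.07). Cox4i1, a regulatory subunit, had 17260 in WT and 17429 in KO (0.01), and Cox5a 19069 and 20081 (0.07). Cox5b, which binds zinc, had 15949 and 18189 (0.19, SD 0.18), and Cox8a 8800 and 10061 (0.19, SD 0.18). These last were the ubiquitous subunits past their probe-set SD. Cox6a1, Cox6b1, Cox6c, Cox7a2 and Cox7c had ratios between 0.08 and 0.12, and a second probe set of Cox6c gave -0.43 at 9123 and 6769. Cox7c was far dimmer than the other ubiquitous subunits, at 333 and 360 (0.11, SD 0.31), from a probe set with the suffix _s_at. Cox4i1 stood at -0.03 with quantile normalization and at -0.05 with loess, and Cycs at -0.02 and -0.04.

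Isoforms of complex IV known from other tissues were mostly dim, 6 of 7 lying under the 75th percentile of signal and Cox7a1 above it. Cox6b2, the testis isoform, had 113 in WT and 183 in KO (0.63, SD 0.37), and Cox8c, also of testis, 232 and 148 (-0.60, SD 0.37). They went opposite ways at signals where probe sets disagree most, and the other probe set of Cox8c, below the minimum, gave 0.84. Cox7a1 and Cox6a2, the heart and muscle isoforms, had 604 and 554 (-0.12) and 77.2 and 95.2 (0.25), and Cox4i2 82.6 and 85.2 (0.04). Cox8b (7.69 and 5.67) and Cox7b2 (2.36 and 2.43) lay below the minimum, as did Ndufa4l2 (8.34 and 10.2) and the single-gene probe set of Ndufb4 (7.48 and 14.1). These 4 are the genes of the 100 that were not measured. Cox7a2l, which joins complexes III and IV into supercomplexes, had 9031 and 7832 (-0.21, SD 0.18), with its other probe sets at -0.27 and -0.20, so that all 3 were lower in the KO pool.

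**Figure D3:**
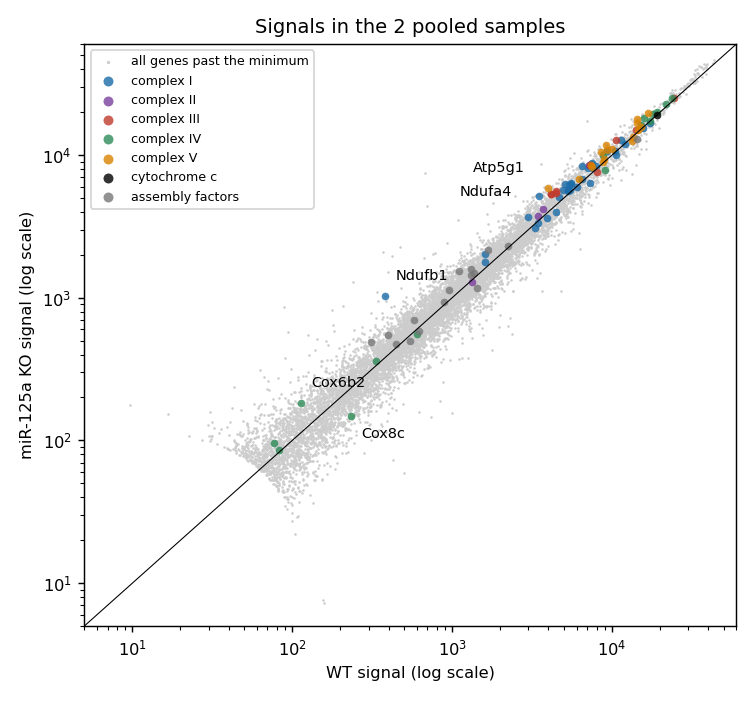
Signal of each measured gene in the KO pool against the WT pool, both axes on a log scale, with respiratory chain genes coloured by complex over all measured genes in grey and the line of equality. Most subunits lie at high signal just above the line, Ndufb1 lies far above it, and the testis isoforms Cox6b2 and Cox8c lie apart from the rest at low signal on opposite sides.

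The catalytic head of complex V was above 0 in all 5 genes, except that Atp5c1 and Atp5d fell just below 0 with loess scaling and Atp5c1 also with quantile normalization. Atp5a1 (alpha) had 9197 in WT and 11692 in KO, 1.27-fold higher (0.35, SD 0.18), and Atp5b (beta, which holds the catalytic sites with alpha) 14226 and 16656 (0.23, SD 0.18). Atp5c1 (gamma, the rotating shaft) had 15255 and 15680 (0.04), Atp5d (delta) 14604 and 15042 (0.04) and Atp5e (epsilon) 7462 and 8238 (0.14). The catalytic pair was therefore further from 0 than the shaft, but the other probe sets of Atp5a1 gave 0.02 and -0.05, and its mean over probe sets was 0.11. Atp5c1 stood at -0.10 with the mean over probe sets and at -0.24 when those with the suffixes _s_at and _x_at were dropped.

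Subunit c, which forms the proton-driven ring, is encoded by 3 genes that make the same mature protein. Atp5g1 had 3994 in WT and 5861 in KO, 1.47-fold higher (0.55, SD 0.19). Atp5g3 had 16763 and 19759 (0.24, SD 0.18) and Atp5g2 8928 and 9313 (0.06, SD 0.18). All 3 were above 0 by the probe sets used, and only Atp5g2 lay within its SD. A dim second probe set of Atp5g2, at 168 and 102, gave -0.63, and its mean over probe sets was -0.29.

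The stalk and membrane subunits of complex V had a median of 0.15, with 7 of 9 above 0 (77.8%, against 51% of all genes). Atp5pb (b, the stator) had 14325 in WT and 17845 in KO (0.317, SD 0.18), just under the threshold, and Atp5k (e, of the dimer interface) 8486 and 10483 (0.30, SD 0.18). Atp5h (d, also of the stator) had 13270 and 12639 (-0.07), and Atp5j2 (f) 13469 and 13427 (-0.0045). Atp5o, which ties the stator to the head, had 7437 and 8497 (0.19), while its second probe set gave -0.60 at 2405 and 1578.

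Assembly factors were also mostly above 0. All 16 were measured, 12 had a ratio above 0 (75%, against 51% of all genes), 4 were past the upper threshold (25%, against 15.9%) and 0 past the lower (against 16%), and their median was 0.12. Ndufaf5, an enzyme that modifies a complex I subunit, had 310 in WT and 492 in KO, 1.56-fold higher (0.64, SD 0.31), and Ndufaf4, an early complex I factor, 1104 and 1529, 1.38-fold higher (0.46, SD 0.24). Cox10, which makes haem for complex IV, had 398 and 545, 1.36-fold higher (0.44, SD 0.28), and Cox16 1666 and 2157, 1.29-fold higher (0.37, SD 0.21). The lowest were Ndufaf3, at 1428 and 1166 (-0.29, SD 0.24), and Cox17, a copper carrier, at 14293 and 12882 (-0.15, SD 0.18).

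Repeat probe sets are the only second measurement of a gene here. Of the members, 50 had further probe sets past the minimum, 81 in all, and 55 of these 81 (67.9%) gave a ratio above 0, with a median of 0.12. Counting the probe sets used as well, 130 of 177 (73.4%) were above 0, against 47.5% of all measured single-gene probe sets of the array. The share among further probe sets of all genes was not computed. In 52 of the 81 the sign was that of the probe set used. The typical distance between them was 0.17, more than the median ratio of the subunits, so the direction of a single gene near 0 is not settled by these arrays. In 7 genes (Atp5g2, Atp5o, Cox6c, Ndufa12, Ndufs4, Ndufv2 and Sdhc) a further probe set differed by more than 0.5. The widest was Ndufv2, where 1 probe set gave -1.06 at 6008 and 2883 and the other -0.04.

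**Figure D4:**
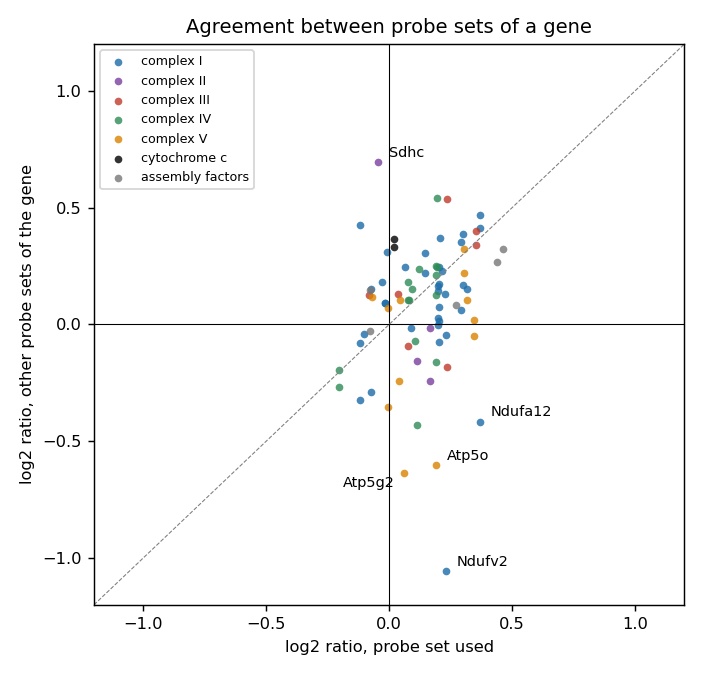
Log2 ratio (KO over WT) of further measured probe sets of a gene against that of the probe set used, coloured by complex, with the dashed line of equality. The upper right field is the fullest, and Ndufv2, Atp5o, Ndufa12, Sdhc and Atp5g2 each have a point far from the line.

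Genes that work beside the respiratory chain were read from lists grouped by function. The first list holds genes that feed electrons in, make ubiquinone or carry ATP, phosphate and other substrates across the membranes, together with Atpif1, an inhibitor of the ATP synthase, Higd1a and Higd2a. Of its 21 measured genes 19 were above 0 (90.5%, against 51% of all genes), 5 were past the upper threshold (23.8%, against 15.9%) and 0 past the lower (against 16%), with a median of 0.24. Dhodh, which links pyrimidine synthesis to ubiquinone, had 346 in WT and 543 in KO (0.63, SD 0.31). Gpd2, of the glycerol phosphate shuttle, had 1056 and 1468 (0.47), and Coq7, of ubiquinone synthesis, 677 and 1019 (0.58). Of 15 genes of the mitochondrial matrix, membranes and protein import, 13 were above 0 (86.7%), 7 were past the upper threshold (46.7%) and 0 past the lower, against the same shares of all genes, with a median of 0.26. Hspd1, the matrix chaperonin, had 5488 and 9606 (0.81), whereas Cs, citrate synthase, had 6203 and 6956 (0.16) and Tomm20, an import receptor, 23468 and 23703 (0.01).

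Regulators of mitochondrial biogenesis went both ways. Of 17 measured, 8 were above 0 (47.1%, against 51% of all genes), 3 were past the upper threshold (17.6%, against 15.9%) and 1 past the lower (against 16%), with a median of -0.0019. The first 2 shares are near those of all genes. Gabpa, an ETS-family activator of respiratory genes, was the one past the lower threshold, at 2244 in WT and 1575 in KO (-0.51), and Tfam, which packages and transcribes mitochondrial DNA, stood at 1533 and 1278 (-0.26). Nrf1, the nuclear respiratory factor, had 679 and 693 (0.03), while Pprc1, a coactivator, had 819 and 1292 (0.65) and Polrmt, the mitochondrial RNA polymerase, 537 and 734 (0.44). Assembly factors outside the symbol rule had a median of 0.04, with 14 of 22 above 0 (63.6%, against 51% of all genes). Of these 22, 4 were past the upper threshold (18.2%, near the 15.9% of all genes) and 1 past the lower (against 16%). A single mitochondrially encoded subunit was found on the array, ND5 of complex I, at 16360 and 16137 (-0.02). Its signal was nearly equal in the pools.

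Promoter windows were read because most members lay on the same side of 0. RefSeq windows of 300 bases (250 before to 50 after the start, GRCm38.p6) matched 81 of the 100 genes, by 87 windows. Each was searched on both strands for GCGCATGCG, from the core of the NRF1 site, CCGGAAG, an ETS site as bound by Gabpa, and AAGATGGCG, a YY1 site. The NRF1 letters occurred in 11.5% of member windows and 1.75% of all 32851 windows, the ETS letters in 27.6% and 8.86%, and the YY1 letters in 9.20% and 1.40%. The whole set of windows includes noncoding genes and genes not measured here. Matches to different motifs overlapped in 0 member windows. The 10 measured genes holding the NRF1 letters (Atp5g2, Atp5k, Atp5l, Cox6a1, Cycs, Ndufa8, Ndufaf4, Ndufaf5, Uqcr11 and Uqcrc1) were all above 0 (Cycs not with quantile or loess scaling, and Atp5g2 not with the mean over probe sets, at -0.29), with a median log2 ratio of 0.25 against 0.12 for the 68 with a window and no match. That gap depended on the letters searched. A looser form of the NRF1 site, with a free base at its centre, was searched first and gave 0.14 for 16 genes (14 above 0) against 0.13 for 62. A form longer by 1 base than the letters shown gave 0.33 for 6 genes against 0.12 for 72, all 6 being among the 10. The letters shown were taken up last, with the ratios and the result of the looser form known, so the contrast of 0.25 and 0.12 supports nothing by itself.

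Genes with ETS letters had a median of 0.12 and those without 0.14, and genes with YY1 letters 0.16 and those without 0.12. In all 9 strings were searched. Besides the NRF1 forms, a longer ETS form (9.20% of member windows and 3.89% of all), the SP1 site (49.4% and 35.7%), the CCAAT box (41.4% and 37.4%) and the TATA box (11.5% and 13.6%) were read. Genes with the SP1 letters had a median of 0.09 against 0.17 without, those with the CCAAT box 0.11 against 0.16, those with the TATA box 0.06 against 0.14, and those with the longer ETS form 0.14 against 0.13.

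Windows of 6 genes are shown, from RefSeq, to set genes with and without these letters side by side. Ndufb1, Ndufa4 and Atp5g1, which have the highest ratios among subunits past the 75th percentile of signal, hold none of the 3 motifs given by their letters above. Uqcrc1 (0.35), Atp5k (0.30) and Cycs (0.02) hold the NRF1 letters, and Atp5k an ETS match as well. Capitals mark matches to these 3 motifs only, and matches to the other strings searched stand in lower case. Ndufb1 lies at chr12:101975689-101975988 (minus), Ndufa4 at chr6:11907401-11907700 (minus) and Atp5g1 at chr11:96075582-96075881 (minus). Uqcrc1 lies at chr9:108936398-108936697 (plus), Atp5k at chr5:108434350-108434649 (minus) and Cycs at chr6:50566520-50566819 (minus).
Ndufb1: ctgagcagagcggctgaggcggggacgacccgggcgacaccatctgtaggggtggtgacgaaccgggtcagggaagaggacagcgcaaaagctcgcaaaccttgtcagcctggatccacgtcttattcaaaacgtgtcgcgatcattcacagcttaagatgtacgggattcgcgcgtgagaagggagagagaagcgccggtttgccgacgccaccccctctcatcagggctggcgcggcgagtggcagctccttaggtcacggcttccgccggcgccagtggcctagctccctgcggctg
Ndufa4: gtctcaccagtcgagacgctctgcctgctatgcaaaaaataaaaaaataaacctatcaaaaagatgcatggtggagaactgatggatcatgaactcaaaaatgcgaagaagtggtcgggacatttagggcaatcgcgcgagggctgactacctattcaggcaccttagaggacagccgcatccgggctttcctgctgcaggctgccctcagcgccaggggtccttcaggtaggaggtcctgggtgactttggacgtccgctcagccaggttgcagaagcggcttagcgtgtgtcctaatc
Atp5g1: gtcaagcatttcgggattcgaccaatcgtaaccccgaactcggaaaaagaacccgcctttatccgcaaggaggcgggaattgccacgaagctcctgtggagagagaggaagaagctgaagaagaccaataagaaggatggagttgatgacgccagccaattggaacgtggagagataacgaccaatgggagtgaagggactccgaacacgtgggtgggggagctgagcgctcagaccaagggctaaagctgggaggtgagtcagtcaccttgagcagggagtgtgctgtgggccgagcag
Uqcrc1: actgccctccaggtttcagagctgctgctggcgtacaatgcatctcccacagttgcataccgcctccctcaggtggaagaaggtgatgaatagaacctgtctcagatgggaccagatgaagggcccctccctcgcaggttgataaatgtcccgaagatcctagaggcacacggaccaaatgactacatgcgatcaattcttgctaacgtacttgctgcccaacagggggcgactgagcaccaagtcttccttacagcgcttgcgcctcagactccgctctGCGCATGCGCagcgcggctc
Atp5k: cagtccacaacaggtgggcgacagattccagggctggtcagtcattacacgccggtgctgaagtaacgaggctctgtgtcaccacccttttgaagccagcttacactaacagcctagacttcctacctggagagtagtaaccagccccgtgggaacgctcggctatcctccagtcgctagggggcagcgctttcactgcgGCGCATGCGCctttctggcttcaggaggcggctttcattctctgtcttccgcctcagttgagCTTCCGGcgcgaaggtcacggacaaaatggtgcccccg
Cycs: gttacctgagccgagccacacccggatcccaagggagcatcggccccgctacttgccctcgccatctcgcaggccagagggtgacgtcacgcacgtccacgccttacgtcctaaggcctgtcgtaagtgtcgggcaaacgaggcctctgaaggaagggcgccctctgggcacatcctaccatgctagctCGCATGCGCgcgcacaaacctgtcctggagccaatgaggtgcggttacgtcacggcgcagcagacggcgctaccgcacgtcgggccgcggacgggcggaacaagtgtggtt

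Some of these genes share a promoter region with a neighbour read from the other strand. Opposite-strand starts up to 1000 bases apart, or overlapping by at most 100, were counted. Of the 81 members with a window, 26 had such a neighbour on the array, and 22 pairs were measured on both sides. The share of all genes with such a neighbour was not computed. In these 22, 19 members but 13 neighbours had a ratio above 0, against 51% of all measured genes. Their medians were 0.13 and 0.06, and the sign was shared in 10. Whether the 2 sides of a pair go together was not tested. Ndufb1 starts 236 bases from Cpsf2, a gene of mRNA 3' end formation, which had 1096 in WT and 1363 in KO (0.31), a smaller ratio than that of Ndufb1. Ndufa4 lies opposite Phf14 (-0.23), Uqcr10 opposite Zmat5 (-0.16) and Cox10 opposite 2810001G20Rik (-0.64). Atp5j, at 0.15, lies 148 bases from Gabpa itself, at -0.51. Pairs that went together included Atp5pb with Wdr77 (0.32 and 0.33) and Ndufb5 with Mrpl47, a mitochondrial ribosomal protein (0.23 and 0.38).

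Markers of other spleen cells were read beside these genes. Of 24 markers on the array 10 were measured, with log2 ratios from -0.81 to 0.50. The summed signal of the CD8 and NK cell markers was 8805 in WT and 5710 in KO, all 3 measured ones being lower. Klrd1 alone made up most of both sums, at 7919 in WT and 5065 in KO. Cd8a had 435 and 295 and Cd8b1 438 and 332, while Ncr1 lay below the minimum. The sums for myeloid markers were 495 and 379, for neutrophil markers 180 and 46.4 and for B cell markers 270 and 280. Those for erythroid markers were 10.8 and 7.03, and for platelet markers 2264 and 2790. Among platelet markers Pf4 (0.50) and Ppbp (0.37) were higher in the KO pool and Itga2b (-0.43) was lower. Of the B cell markers, Cd79b was measured, at 229 in WT and 205 in KO, while Cd79a (3.68 and 25.8), Ms4a1 (33.7 and 10.1) and Pax5 (3.64 and 39.1) lay below the minimum. No neutrophil or erythroid marker reached the minimum as a mean of both pools, S100a8 being the brightest at 69.6 and 8.22. Hba-a1, of red cells, had 4.46 and 5.16. The part of other cells in the respiratory chain values was not tested. In pooled bulk RNA, fewer cells of a type and less RNA per cell cannot be told apart.

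The direction of the group was computed under other array scalings and probe set choices. The share of subunits above 0 was 85% with equal array medians, 71.3% with quantile normalization and 70.0% with loess, against 56.0%, 54.0% and 54.0% of all genes. With the mean over probe sets it was 76.3%, against 48.8%. The median of the subunits stood above that of all genes by 0.11 as reported, by 0.06 with quantile normalization and by 0.07 with loess.

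**Figure D5:**
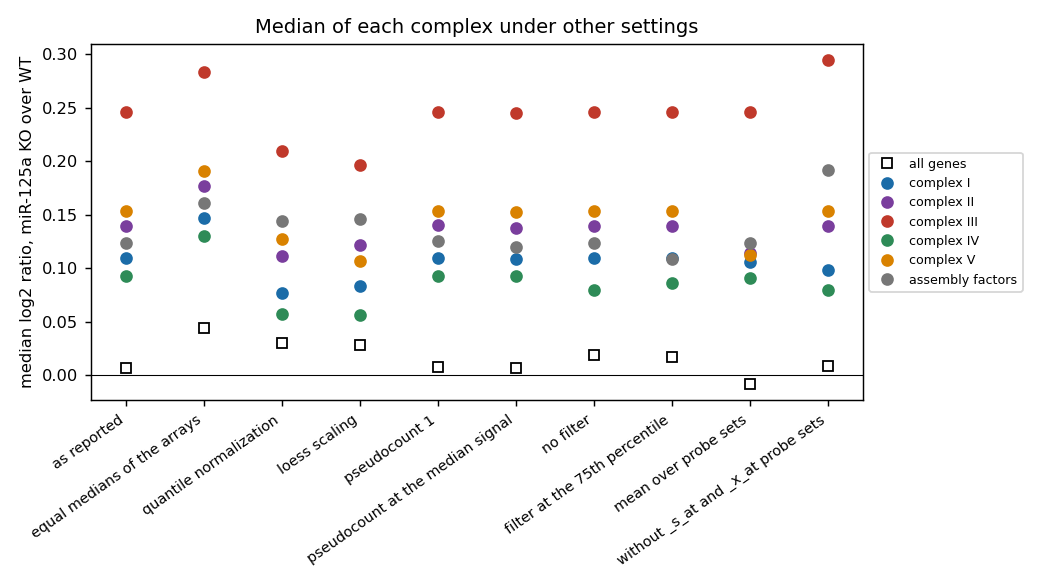
Median log2 ratio (KO over WT) of each complex, of the assembly factors and of all measured genes under the reported setting and 9 others. Every complex stays above 0 and above the median of all genes in each setting, with complex III highest (0.20 to 0.29) and the squares of all genes between -0.0082 and 0.04.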

How the data were processed

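Splenic CD4+CD25hi Treg cells of WT and miR-125a KO mice were profiled, 1 array per genotype. The authors deposited log2 values for 45101 probe sets per array, and per the submitters' processing notes they were made with MAS5, whose version is not stated there. MAS5 subtracts mismatch signal, so dim values vary widely. The lowest deposited value, 0 on the log2 scale, was held by 552 WT and 473 KO probe sets. Further steps are not given in the sources used here.

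Values were returned to a linear scale. Of the probe sets, 34945 named 1 gene, 932 several, 9160 none, and 64 controls were left out. The pseudocount, 16.3, is the 25th percentile of all signals, and the minimum, 62.3, the median over probe sets. The probe-set SD is that of the difference between the 2 brightest probe sets of 5037 genes, in 10 equal groups of signal, divided by the square root of 2. With 1 sample per genotype the number of arrays limits the precision, and size was counted at log2 ratios of 0.32 and at 2-fold. Named genes were, per complex, the highest and lowest ratios, the redox or catalytic core, isoform sets, genes past 0.32, genes whose probe sets disagreed and genes under the minimum. The members and lists were chosen with earlier results of these data known. The counts against the probe-set SD, the promoter motifs and their letters, the windows shown and the pairs of neighbouring genes were chosen after the values were seen. Alternatives were 3 array scalings, 2 pseudocounts, 2 filters, the mean over probe sets, probe sets without the suffixes _s_at and _x_at, a fold of 1.5, and Ndufa4 placed in complex IV. The calculation was tested on simulated data. Python 3.11.15, pandas 2.3.3, numpy 2.4.6 and statsmodels 0.14.6 were used.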

Additional observations from a re-analysis of the deposited data

How the results depend on the processing

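No paired analysis was possible because each genotype has 1 pooled sample, and for the same reason no replicate could be left out. Over the alternatives, 0 medians of a complex, of all subunits or of the assembly factors lay below 0. The median of all subunits moved from 0.11 to 0.15 with equal array medians, where the subunits past the upper threshold of 0.32 went from 9 to 15, or 18.8% against 18.6% of all genes. At 1.5-fold 2 subunits were higher, and the share of all genes at that fold was not computed. The subunits past the lower threshold went from 1 to 0 with the filter at the 75th percentile, against 12.5% of all genes. They went to 2 of 76 when probe sets with the suffixes _s_at and _x_at were dropped, against 15.9%. Ndufa12, at 0.37, stood at -0.42 when those were dropped, where only its dim one remained. A median counted as moved when it shifted by more than the standard error that the probe-set SD gives a median of that many genes. Of 852 values of single genes under alternatives, 840 stayed within the gene's probe-set SD, and 11 others moved further, among them Atp5a1 to 0.11 and Ndufv2 to -0.29 with the mean over probe sets. Choices made after seeing the data left complex IV without tissue isoforms at 0.10 and complex I with probe sets naming several genes at 0.15. With the other scalings 56.2% to 57.1% of all genes past the threshold were past the upper one, against 49.8% as reported. Signal limits the isoforms of complex IV most, since their probe-set SD of up to 0.37 exceeds most ratios here.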

Other observations

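Probe sets that name several genes stayed out of the counts above. For Ndufs6, Ndufb4, Ndufa11 and Cox14 they are the measured ones, whereas Ndufab1 and Ndufs5 were also measured by probe sets of their own. Of 11 such probe sets with a respiratory chain symbol, 7 were past the signal minimum. The probe set shared by Ndufs6 and Ndufs6b, the former a zinc-binding subunit at the NADH end of complex I, had 3906 in WT and 4992 in KO, a log2 ratio of 0.35. The pair shared by Ndufb4, Ndufb4b and Ndufb4c had 3849 and 4258 (0.14) and 3579 and 4449 (0.31). The brighter probe set of Ndufa11 and Ndufa11b had 4118 and 4595 (0.16), that of Ndufab1 and its pseudogene 3273 and 4073 (0.31), and that of Ndufs5 and its pseudogene 4529 and 5020 (0.15). The probe set of Cox14, an assembly factor of complex IV, shared with Gm29733, had 2881 and 2811 (-0.04). Of the 7, 6 thus had a ratio above 0, against 51% of all measured genes.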
